A study of Mus musculus with 12 samples.

Results

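Pre-CD8 progenitors are bone marrow cells on the way to the CD8-lineage dendritic cell (DC), the cell usually called cDC1, and 17 of the 22180 genes measured had their highest mean level in them by a set margin. A gene was taken when its mean log2 expression value on the pre-CD8 arrays was at least 6.0 and lay at least 0.8 above the mean of each of the 4 other populations. The 17 genes were Prg2, Cd226, Nccrp1, Igh-VS107, Anxa1, Ltf, AF067061, Fcnb, Camp, Cysltr1, Igkj1, S100a8, S100a9, Gm20559, Chil5, Wfdc21 and Lcn2. Their gap, the pre-CD8 mean minus the highest mean of any other population, ran from 0.81 to 2.46 with a median of 1.12. These values chose the genes, so they are given as a description and no contrast with pre-CD8 was tested on them.

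RNA was measured on 12 Affymetrix whole-transcript arrays from 5 sorted populations of C57Bl/6 N8 Zbtb46GFP/+ mice at steady state, so every population carried 1 GFP reporter allele at Zbtb46, which encodes a transcription factor that marks the classical DC lineage. Bone marrow and spleen cells came from 8 to 10 littermates, and the series description gives a sort purity above 95%. Pre-CD8 cells (n = 2) were marrow cells without lineage markers, positive for CD135 and CD11c, intermediate for CD117 and MHC class II and negative for Siglec H. CD24 DC (n = 3) were CD11c+ CD24+ CD172a- cells, labelled as MHC II negative, and CD172a DC (n = 2) were CD11c+ cells with both MHC class II and CD172a on the surface. Pre-CD4 cells (n = 2), the marrow progenitor of the other lineage, were lineage negative, CD117 low, CD135+, CD115+ and CD11c+ and lacked MHC class II. The common DC progenitor, CDP (n = 3), was lineage negative, CD117 intermediate, CD135+ and CD115+, without CD11c or MHC class II. The labels do not say whether arrays of a population came from separate mice or pools, so p-values reflect array-to-array spread alone, and that may be technical.

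Classical DCs arise in bone marrow from the CDP through progenitors already set toward the cDC1 or the cDC2 lineage, and they finish their maturation in organs such as the spleen. cDC1 cells take up dead cells and present their antigens to CD8 T cells. Granulocytes arise from the same marrow, and their precursors make the granule proteins in waves, with myeloperoxidase and the serine proteases of the primary granules first and lactoferrin, lipocalin 2 and cathelicidin of the secondary granules later.

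The population was set beside a cDC1 marker list chosen with earlier results of these data known, which is no independent check of its name. The list held 36 genes outside the 17. Their mean log2 value was 7.64 and 8.37 on the pre-CD8 arrays, against 9.31 to 9.61 in CD24 DC, 6.84 to 6.99 in CD172a DC, 6.02 to 6.05 in pre-CD4 and 5.66 to 5.74 in CDP. In pre-CD8 against CDP, 27 of the 36 rose and 0 fell, where 4.77% of all genes passed the threshold (limma, adjusted p under 0.05), 2.29% higher and 2.47% lower. Without pre-CD8 array 2 the count was 21. Tlr3, a receptor of double-stranded RNA, was 6.15 ± 0.31 (SE) higher on the log2 scale (limma adjusted p = 2e-07), Ifi205 was 5.65 ± 0.25 higher (limma adjusted p = 5.17e-08) and Id2, a transcription regulator that cDC1 cells need, was 4.96 ± 0.20 higher (limma adjusted p = 3.91e-08).

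The 2 pre-CD8 arrays did not give the same picture of the 17 genes. Both arrays lay above all 10 other arrays for 9 genes: Prg2, Cd226, Nccrp1, Igh-VS107, Anxa1, AF067061, Cysltr1, Gm20559 and Chil5. Across all genes 0.771% met that condition, and since the same values chose the 17, nothing is read from the count. For the other 8 genes, Ltf, Fcnb, Camp, Igkj1, S100a8, S100a9, Wfdc21 and Lcn2, array 2 alone stood above the other populations. With array 1 alone the gap of each of these 8 was below 0, from -1.29 for Camp to -0.20 for Igkj1, and with array 2 alone it was 2.19 to 3.53. The statement that all 17 genes peak in pre-CD8 cells therefore held on the mean of both arrays but not on array 1. Without array 1 the rule found 26 genes, 14 of the 17 among them, and without array 2 it found 41 genes, 8 of the 17 among them.

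**Figure D1:**
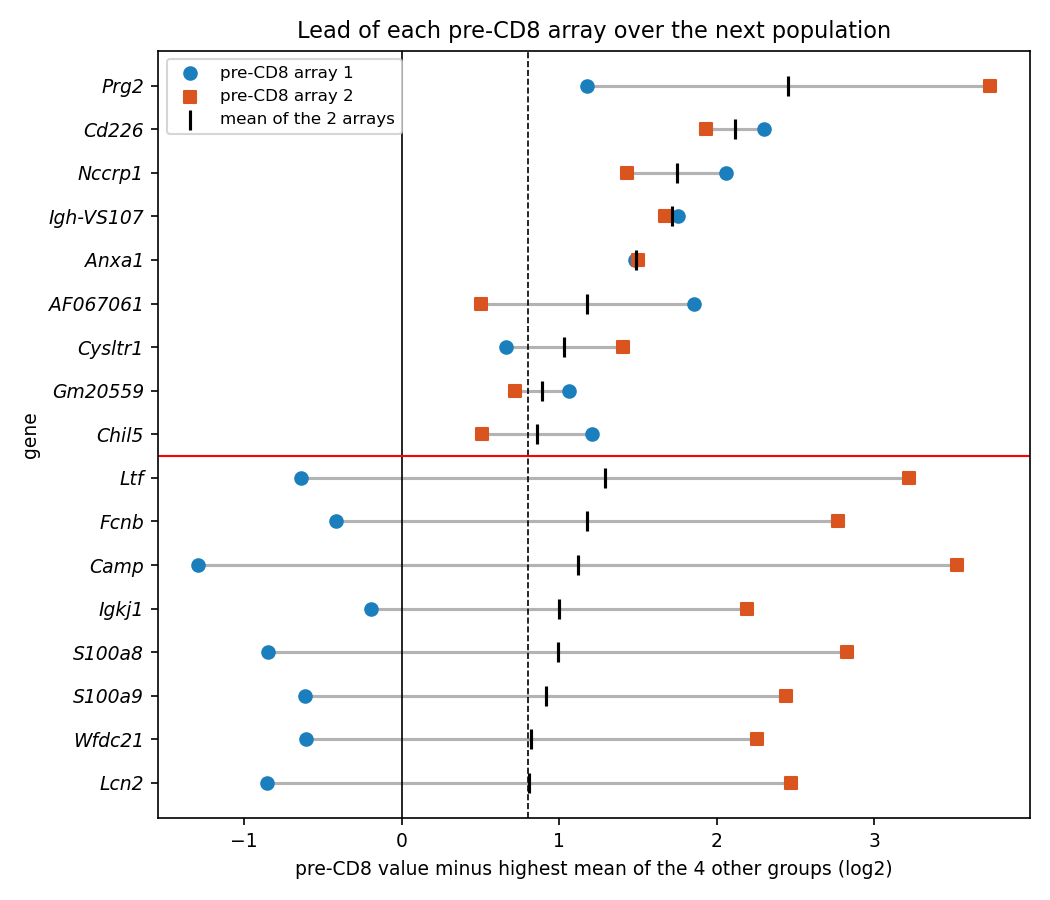
Gap of each gene, in log2 units, from pre-CD8 array 1 (blue circles), pre-CD8 array 2 (orange squares) and their mean (black ticks) to the highest mean of the 4 other populations; the dashed line marks the margin of 0.8 and the red line parts the 9 genes above from the 8 below. Below the red line every blue circle lies left of 0, while the orange squares reach 2.19 to 3.53.

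Cd226 encodes DNAM-1, an activating adhesion receptor of T, NK and some myeloid cells that binds the poliovirus receptor and Nectin-2. Its log2 values were 9.0 and 8.64 in pre-CD8, against 5.61, 5.43 and 4.54 in CD24 DC, 4.68 and 4.70 in CD172a DC, 6.72 and 6.69 in pre-CD4 and 4.04, 4.25 and 4.01 in CDP. The lowest pre-CD8 array stood well above the highest pre-CD4 array, and CDP was lowest of all. The mean was 8.82 ± 0.26 in pre-CD8 and 6.70 ± 0.02 in pre-CD4, the next population (SD, n = 2 each), a gap of 2.12 or 4.34-fold. Of the 17, it was the only gene that also stood on the cDC1 list and on the list of integrins and adhesion molecules.

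Cysltr1, the receptor of cysteinyl leukotrienes, lipid mediators of allergic inflammation, had log2 values of 6.96 and 7.69 in pre-CD8, against 5.93, 6.04 and 4.98 in CD24 DC, 4.80 and 3.58 in CD172a DC, 5.67 and 6.92 in pre-CD4 and 4.12, 4.62 and 4.68 in CDP. The lower pre-CD8 array was only 0.04 above the higher pre-CD4 array. Its gap was 1.03. Nccrp1, an F-box-associated protein named after a receptor of fish cytotoxic cells, measured 9.90 and 9.28 in pre-CD8, against 6.84, 6.81 and 6.14 in CD24 DC, 6.23 and 6.94 in CD172a DC, 7.59 and 8.10 in pre-CD4 and 5.61, 5.50 and 5.63 in CDP. Here pre-CD4 came next, no population overlapped pre-CD8, and the gap was 1.75.

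Anxa1 encodes annexin A1, a calcium-dependent phospholipid-binding protein known for limiting inflammation. It was bright on most arrays, with 10.22 and 10.23 in pre-CD8, against 9.16, 8.60 and 7.98 in CD24 DC, 6.25 and 7.05 in CD172a DC, 8.91 and 8.55 in pre-CD4 and 8.01, 8.20 and 8.27 in CDP. The pre-CD8 arrays were nearly equal, CD172a DC was the lowest population, and pre-CD4 followed pre-CD8 with a gap of 1.49. Chil5, a chitinase-like protein, had 7.03 and 6.33 in pre-CD8, against 5.89, 5.60 and 4.41 in CD24 DC, 4.83 and 4.82 in CD172a DC, 5.74 and 5.89 in pre-CD4 and 4.18, 4.22 and 3.89 in CDP. Pre-CD8 was highest and CDP lowest on every array, and the gap of 0.86 placed the gene just inside the margin.

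Gm20559, a long non-coding RNA in RefSeq, had log2 values of 9.02 and 8.68 in pre-CD8, against 7.01, 6.16 and 3.73 in CD24 DC, 6.78 and 5.77 in CD172a DC, 8.12 and 7.80 in pre-CD4 and 4.85, 3.48 and 2.92 in CDP. Both marrow progenitors with CD11c were high, CDP was low, and CD24 DC array 3 was well below the other CD24 DC arrays. Its gap to pre-CD4 was 0.89. AF067061, a gene with no known role, had 6.84 and 5.48 in pre-CD8, against 4.95, 4.70 and 4.64 in CD24 DC, 4.90 and 4.19 in CD172a DC, 5.33 and 4.63 in pre-CD4 and 4.92, 4.23 and 4.17 in CDP. The gap was 1.18 with both pre-CD8 arrays, 1.86 with array 1 alone and 0.50 with array 2 alone.

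Igh-VS107 is an immunoglobulin heavy chain segment, and values of such segments are uncertain because near-identical relatives can share probes. Its values were 7.94 and 7.86 in pre-CD8, against 5.64, 7.31 and 5.60 in CD24 DC, 6.00 and 5.13 in CD172a DC, 5.43 and 5.28 in pre-CD4 and 4.94, 5.14 and 4.94 in CDP. The 2 pre-CD8 arrays were close to each other, and CD24 DC array 2 came within 0.55 of the lower one. A second probe set of this symbol read 3.14 and 3.79 on the pre-CD8 arrays, and averaging the probe sets took the gene out of the 17.

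Prg2, the major basic protein of eosinophil granules, had the widest gap of the 17 at 2.46. It measured 6.35 and 8.91 in pre-CD8, against 4.52, 4.74 and 4.81 in CD24 DC, 4.94 and 4.90 in CD172a DC, 4.31 and 4.42 in pre-CD4 and 4.49, 6.10 and 4.93 in CDP. Array 2 was 2.56 higher than array 1, and the lower pre-CD8 array exceeded CDP array 2 by only 0.25.

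**Figure D2:**
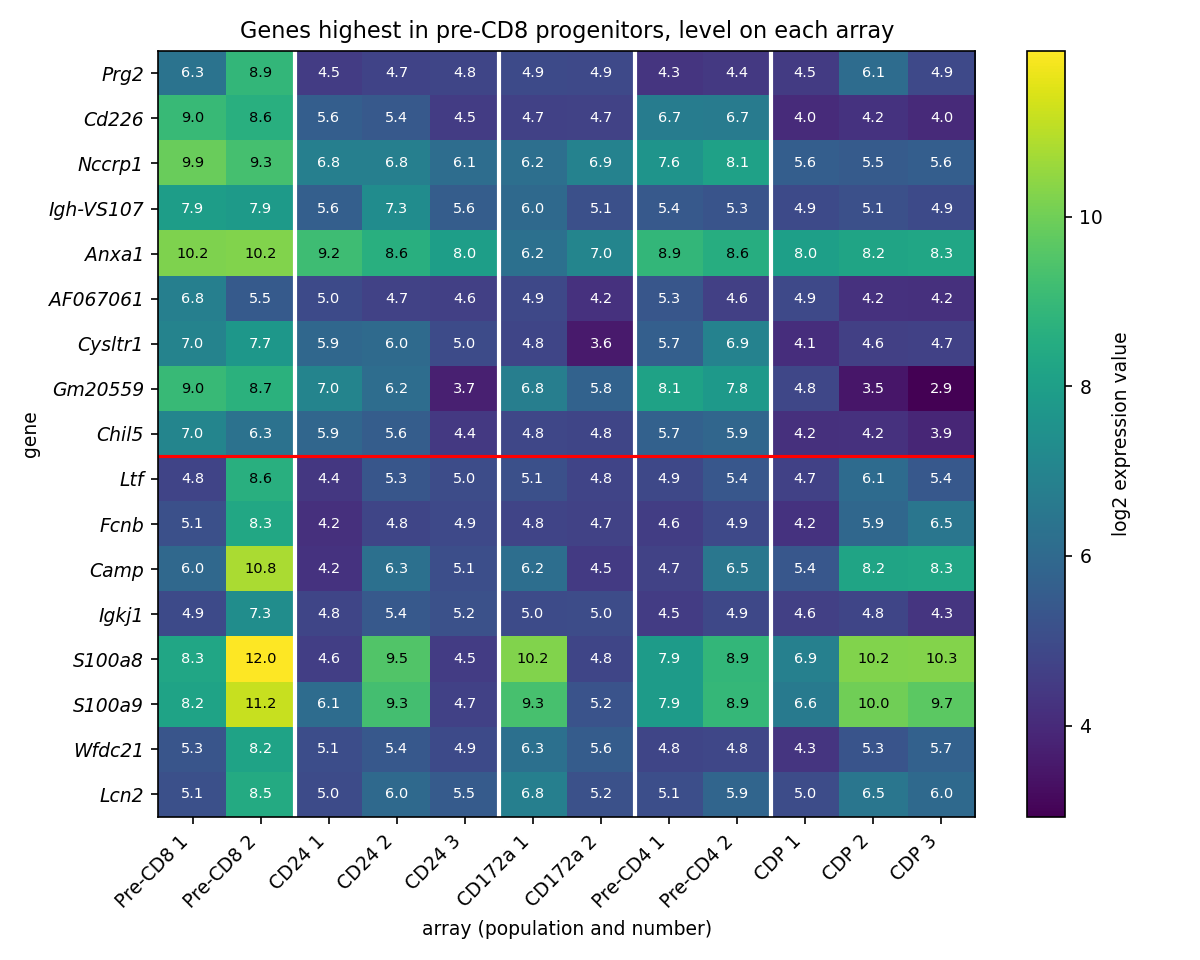
Log2 expression value of the 17 genes (rows) on each of the 12 arrays (columns, grouped by population), coloured from dark for low to yellow for high and printed in the cells; the red line parts the 9 genes that both pre-CD8 arrays carry from the 8 that array 2 alone carries. Below the line the column of pre-CD8 array 2 is bright and that of array 1 is close to the other populations.

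Of the 8 genes that stood above the other populations on pre-CD8 array 2 alone, 7 encode granule, calcium-binding or secreted proteins. Camp, the cathelicidin antimicrobial peptide, had log2 values of 5.99 and 10.81 in pre-CD8, against 4.25, 6.27 and 5.08 in CD24 DC, 6.19 and 4.46 in CD172a DC, 4.71 and 6.50 in pre-CD4 and 5.37, 8.20 and 8.27 in CDP. Ltf, the iron-binding lactoferrin, had 4.76 and 8.62 in pre-CD8, against 4.37, 5.34 and 5.03 in CD24 DC, 5.14 and 4.77 in CD172a DC, 4.87 and 5.36 in pre-CD4 and 4.68, 6.08 and 5.42 in CDP. For both, pre-CD8 array 1 lay inside the range of the CDP arrays. The gap of Camp was 1.12, made of -1.29 with array 1 alone and 3.53 with array 2 alone. For Ltf the gap was 1.29, with -0.64 and 3.22 for the single arrays.

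S100a8 and S100a9 encode the subunits of calprotectin, an abundant calcium- and zinc-binding complex of neutrophils and monocytes. S100a8 measured 8.28 and 11.95 in pre-CD8, against 4.61, 9.52 and 4.52 in CD24 DC, 10.24 and 4.83 in CD172a DC, 7.88 and 8.89 in pre-CD4 and 6.86, 10.25 and 10.26 in CDP. S100a9 followed it on most arrays, with 8.16 and 11.21 in pre-CD8, against 6.10, 9.26 and 4.67 in CD24 DC, 9.33 and 5.22 in CD172a DC, 7.87 and 8.94 in pre-CD4 and 6.63, 9.99 and 9.68 in CDP. Array 1 of pre-CD8 was exceeded by CDP arrays 2 and 3, pre-CD4 array 2, CD24 DC array 2 and CD172a DC array 1 in both genes. The gaps of 0.99 and 0.92 were smaller than the SD between the CD172a DC arrays, 3.83 for S100a8 and 2.91 for S100a9.

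Lcn2, lipocalin 2, which binds bacterial siderophores, had log2 values of 5.13 and 8.46 in pre-CD8, against 4.98, 6.02 and 5.52 in CD24 DC, 6.81 and 5.16 in CD172a DC, 5.09 and 5.88 in pre-CD4 and 5.02, 6.48 and 6.02 in CDP. Fcnb, ficolin B, a lectin of myeloid cells, had 5.14 and 8.32 in pre-CD8, against 4.18, 4.80 and 4.93 in CD24 DC, 4.78 and 4.71 in CD172a DC, 4.58 and 4.93 in pre-CD4 and 4.24, 5.93 and 6.48 in CDP. Wfdc21, a secreted protein with a WAP domain, had 5.31 and 8.16 in pre-CD8, against 5.06, 5.41 and 4.93 in CD24 DC, 6.26 and 5.56 in CD172a DC, 4.82 and 4.85 in pre-CD4 and 4.32, 5.28 and 5.74 in CDP. In each, array 2 was highest of the 12 and array 1 fell among the other populations. Igkj1, a joining segment of the immunoglobulin kappa chain, measured 4.94 and 7.33 in pre-CD8, against 4.82, 5.45 and 5.15 in CD24 DC, 4.99 and 5.01 in CD172a DC, 4.53 and 4.90 in pre-CD4 and 4.62, 4.81 and 4.33 in CDP, and its relatives make that value uncertain. The gaps were 1.18 for Fcnb, 1.00 for Igkj1, 0.82 for Wfdc21 and 0.81 for Lcn2.

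Promoter windows show what sequence lies at the start of genes from both patterns, and the windows printed are those of the 4 genes with the widest gap among those that could be printed from the RefSeq table used here. Of the 17 genes, 10 had a window of 300 bases, from 250 before the start the table uses to 50 after it, on build GRCm38.p6. That start lay 32 bases inside the RefSeq gene span for Fcnb and 54 for Chil5, and at its edge for the other 8. Capitals mark every match to 14 motifs searched on both strands, and touching or overlapping matches run together. The windows are Anxa1 at chr19:20390622-20390921, minus strand, Ltf at chr9:111019042-111019341, plus strand, AF067061 at chr13:120262845-120263144, plus strand and Fcnb at chr2:28084829-28085128, minus strand, each 5′ to 3′ in the direction of the gene.
Anxa1: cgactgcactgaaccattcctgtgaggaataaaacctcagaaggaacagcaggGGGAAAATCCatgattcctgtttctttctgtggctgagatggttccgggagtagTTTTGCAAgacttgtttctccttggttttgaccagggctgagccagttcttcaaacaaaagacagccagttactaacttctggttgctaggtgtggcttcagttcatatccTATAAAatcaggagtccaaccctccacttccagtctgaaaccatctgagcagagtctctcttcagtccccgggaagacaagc
Ltf: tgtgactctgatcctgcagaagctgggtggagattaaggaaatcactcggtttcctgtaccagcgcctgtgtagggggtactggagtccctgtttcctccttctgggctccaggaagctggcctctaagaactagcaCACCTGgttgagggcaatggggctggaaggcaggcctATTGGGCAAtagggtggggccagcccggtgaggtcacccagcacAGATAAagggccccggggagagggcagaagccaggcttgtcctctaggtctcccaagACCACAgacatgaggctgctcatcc
AF067061: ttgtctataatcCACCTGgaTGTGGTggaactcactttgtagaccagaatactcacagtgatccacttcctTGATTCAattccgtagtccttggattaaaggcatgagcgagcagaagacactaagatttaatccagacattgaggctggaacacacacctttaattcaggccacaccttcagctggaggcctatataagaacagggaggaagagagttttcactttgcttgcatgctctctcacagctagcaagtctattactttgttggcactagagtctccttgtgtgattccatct
Fcnb: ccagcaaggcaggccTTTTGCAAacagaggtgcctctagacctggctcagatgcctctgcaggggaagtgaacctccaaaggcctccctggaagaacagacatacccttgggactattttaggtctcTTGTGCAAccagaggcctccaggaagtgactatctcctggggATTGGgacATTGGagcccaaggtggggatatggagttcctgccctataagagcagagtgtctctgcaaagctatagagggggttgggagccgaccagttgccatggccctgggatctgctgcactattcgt

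The C/EBP motif TTGCNNAA, a site form of a factor family of granulocyte genes, was in 5 of the 10 windows (Anxa1, Ltf, Fcnb, S100a9 and Lcn2), against 12.2% of the windows of 27025 genes. The E box CACCTG was in 5 of the 10 against 22.6%, and the TATA box TATAAA in 4 against 15.7%. The CCAAT box CCAAT was in 4 against 41.1%, the RUNX motif TGTGGT in 3 against 18.9% and the NF-kB motif (GGGA and CC with 4 free bases between) in 3 against 22.9%. The GATA motif AGATAA was in 2 against 12.7% and the GC box GGGCGG in 2 against 38.2%. In 1 window each lay the AP-1 motif TGANTCA, the ETS-IRF motif (GGAA and GAAA with 2 free bases between), the PU.1 motif GAGGAAGT and the NFIL3 motif TTACNTAA, against 8.97%, 3.16%, 3.69% and 2.72%. The interferon response motif (GAAA, 2 free bases, GAAA) and the MYC E box CACGTG were in 0 of the 10, against 3.99% and 8.09%. Motifs can share letters in a window, as C/EBP and CCAAT matches do in Ltf. A match is a description of letters, and binding was not measured.

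The pre-CD8 arrays also differed from each other in genes beyond the 17. The difference, array 2 minus array 1, had a median of 0.01 and an SD of 0.47 over all genes. It reached 2 log2 units in 26 genes, 0.117% of all. Among these were 9 of the 17, and since the same values chose the 17, nothing is read from that count. Array 1 was at least 2 log2 units above array 2 in 28 genes. Ngp, the neutrophilic granule protein, had the largest difference of all genes, with 5.12 on array 1 and 10.87 on array 2. Chil3, a chitinase-like protein of myeloid cells, had 5.49 and 9.39. Of the 14 genes outside the 17 on a list of neutrophil markers, 3 (Ngp, Chil3 and the granulocyte transcription factor Cebpe) were highest on pre-CD8 array 2 and 7 on a CDP array.

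Among the 17 genes, 6 stood on the neutrophil list (Ltf, Camp, S100a8, S100a9, Lcn2 and Fcnb). Their mean log2 value was 6.24 and 9.89 in pre-CD8, against 4.75, 6.87 and 4.96 in CD24 DC, 7.08 and 4.86 in CD172a DC, 5.84 and 6.75 in pre-CD4 and 5.47, 7.82 and 7.69 in CDP. The 14 other markers averaged 5.98 and 7.42 in pre-CD8, against 4.83 to 5.47 in CD24 DC, 4.99 to 5.67 in CD172a DC, 5.80 to 5.81 in pre-CD4 and 7.03 to 7.66 in CDP. Their summed linear level was 1558.2 to 5618.6 in pre-CD8, against 437.5 to 726.4 in CD24 DC, 544.3 to 806.2 in CD172a DC, 926.6 to 1011.7 in pre-CD4 and 9721.3 to 12433.0 in CDP. Array 2 exceeded array 1 in 12 of these 14, with a median difference of 1.09, and likewise in 29 of the 36 cDC1 markers, with a median of 0.81. Ly6g, a surface marker of mature neutrophils, was at 4.54 and 4.48 on the pre-CD8 arrays, within the 3.60 to 5.04 of the other arrays. On these log scales no marker has a true 0, the background level is unknown, and RNA pooled from many cells cannot tell fewer cells of a type from less RNA per cell. The part of such cells in the values of the 8 genes was not tested.

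**Figure D3:**
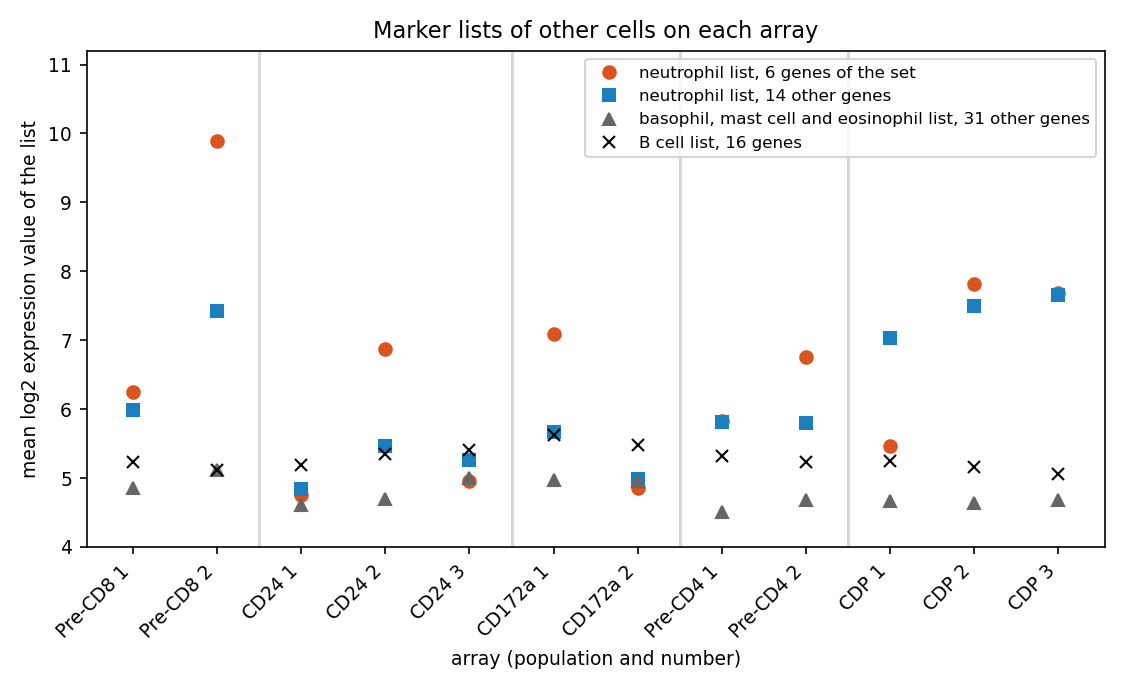
Mean log2 value per array of the 6 neutrophil list genes among the 17 (circles), the 14 other neutrophil genes (squares), 31 basophil, mast cell and eosinophil genes (triangles) and 16 B cell genes (crosses), with grey lines between populations. The circle of pre-CD8 array 2, at 9.89, is the highest point, while the squares are highest in CDP array 3 at 7.66.

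Several primary granule genes were lower in pre-CD8 than in CDP and higher than in CD24 DC. In CD24 DC against pre-CD8, which sets spleen against marrow, 0 of the 14 rose and 5 fell (limma, adjusted p under 0.05). Of all genes, 2.65% rose and 3.66% fell in that comparison. In pre-CD8 against CDP, 0 of the 14 other neutrophil markers rose and 4 fell (limma, adjusted p under 0.05). The counts were 0 and 4 without array 2, and 1 and 3 without array 1, where Cebpe rose by 1.44 ± 0.28 (limma adjusted p = 0.0147). Cathepsin G, Ctsg, differed by -3.20 ± 0.30 on the log2 scale (limma adjusted p = 3.92e-05). Myeloperoxidase, Mpo, differed by -2.76 ± 0.43 (limma adjusted p = 0.00172) and proteinase 3, Prtn3, by -2.56 ± 0.32 (limma adjusted p = 0.000331). The primary granule elastase Elane, at 7.53 and 9.71 on the pre-CD8 arrays, did not pass, at -1.20 ± 0.61 (limma adjusted p = 0.387). The fourth that fell was the collagenase Mmp8 at -1.96 ± 0.42 (limma adjusted p = 0.0144; 0.205 without pre-CD8 array 1).

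Prg2 was the only one of the 17 on the list of basophil, mast cell and eosinophil genes. Of the 31 other genes of that list, 3 rose and 0 fell in pre-CD8 against CDP, and 1 rose when either pre-CD8 array was left out. The mast cell and basophil protease Cpa3 was 1.77 ± 0.28 higher (limma adjusted p = 0.00186) and passed with either array left out. The IgE receptor chain Fcer1a was 1.20 ± 0.31 higher (limma adjusted p = 0.0402), though its level of 4.33 to 4.43 in pre-CD8 was low, and adjusted p was 0.167 without array 2 and 0.21 without array 1 (limma). Kit, which encodes the sort marker CD117, was 0.80 ± 0.21 higher (limma adjusted p = 0.0478; 0.364 without array 2, 0.0809 without array 1 and 0.0765 with a replicate block). The basophil protease Mcpt8 had log2 values of 7.72 and 8.82 in pre-CD8, against 7.59 to 7.74 in CDP. It was at 5.21 and 7.58 in pre-CD4, 3.83 to 5.16 in CD24 DC and 4.31 to 4.36 in CD172a DC. In CD24 DC against pre-CD8, 3 of the 31 genes fell (Mcpt8, Cpa3 and Fcer1a) and 2 rose (Csf2rb2 and Hpgds) (limma, adjusted p under 0.05). Of all genes, 3.66% fell and 2.65% rose there, and that comparison also sets spleen against marrow. The mean of the 31 genes was 4.85 and 5.11 in pre-CD8, against 4.51 to 5.0 on the 10 other arrays. Their summed linear level was 1665.3 to 2107.9 in pre-CD8, against 1809.9 to 2050.0 in CD24 DC, 1907.0 to 2114.0 in CD172a DC, 1159.3 to 1243.4 in pre-CD4 and 1345.5 to 1440.6 in CDP. Kit was the brightest of the 31 in pre-CD8 and spleen and weighs heavily in these sums. Its log2 values were 8.85 and 9.23 in pre-CD8, 9.63 to 9.79 in CD24 DC and 9.59 to 9.80 in CD172a DC. The 16 B cell markers averaged 5.11 to 5.23 in pre-CD8, against 5.06 to 5.62 elsewhere, beside the 2 immunoglobulin segments among the 17. In pre-CD8 against CDP, 1 of the 16 rose and 1 fell. Cd22 was 2.61 ± 0.24 higher (limma adjusted p = 3.77e-05) and Rag2 1.37 ± 0.33 lower (limma adjusted p = 0.0282). Whether granulocyte or B lineage cells had a part in Prg2, Igkj1 or Igh-VS107 was not tested.

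Genes near Cd226 in function moved in both directions. Of 32 other genes for integrins and adhesion molecules, 5 rose and 2 fell in pre-CD8 against CDP. Without pre-CD8 array 1 the counts were 8 and 1, and without array 2 they were 5 and 1. The leukocyte integrin chain Itgb2 was 2.57 ± 0.23 higher on the log2 scale (limma adjusted p = 2.6e-05), the adhesion molecule Alcam 2.26 ± 0.27 higher (limma adjusted p = 0.000205) and the integrin chain Itgb7 1.94 ± 0.27 higher (limma adjusted p = 0.000754). The others that rose were Cd9 and Itgax, the gene of the sort marker CD11c, and Pecam1 and Itgb5 fell, by 1.37 and 0.94, all named after their values were seen. In CD24 DC against pre-CD8, where 6.31% of all genes passed the threshold (2.65% higher, 3.66% lower), 9 of the 32 rose and 3 fell. Itgb7 was there -1.93 ± 0.27 (limma adjusted p = 0.000527). That comparison also sets spleen against marrow, and 13 of 20 genes of tissue-dissociation stress rose in it and 0 fell. Of the same 20 genes, 7 rose and 0 fell in pre-CD8 against CDP, both from marrow, where 2.29% of all genes rose. None of the 17 belonged to a list of 44 genes of KIT and FLT3 signalling. Pik3r5, Jak2, Fyn and Kit rose in pre-CD8 against CDP, by 1.62, 1.59, 1.36 and 0.80 on the log2 scale, while Dusp6 and Gab1 fell by 1.33 and 1.28 (limma, adjusted p under 0.05). Kit and Gab1 did not pass when either pre-CD8 array was left out, nor Dusp6 when array 1 was. Over all lists, 93 of 521 genes outside the 17 rose and 58 fell in pre-CD8 against CDP, a share of 29.0%; without array 2 the total was 99 genes. The lists were built from genes known in these cells and are no independent sample of genes.

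The choice of genes used no comparison between the 4 other populations. It did hold each of their means at least 0.8 below the pre-CD8 mean and set a floor for pre-CD8 alone. The background shares cover all genes, dim ones included, so they are no matched reference for the 17. In pre-CD4 against CDP, 5 of the 17 genes rose and 0 fell, where 4.54% of all genes passed the threshold, 2.32% higher and 2.23% lower. The median log2 difference was 0.13 over the 17 and 0.02 over all genes. Cd226 averaged 6.70 ± 0.02 in pre-CD4 (SD, n = 2) and 4.10 ± 0.13 in CDP (SD, n = 3), a difference of 2.60 ± 0.27 (SE; limma adjusted p = 0.00014). Nccrp1 was 2.26 ± 0.29 higher (limma adjusted p = 0.000559). Both passed with each array left out in turn. Gm20559 was 4.21 ± 0.75 higher (limma adjusted p = 0.00496), Chil5 1.72 ± 0.35 higher (limma adjusted p = 0.0128) and Cysltr1 1.82 ± 0.44 higher (limma adjusted p = 0.0328). No pre-CD4 array overlapped a CDP array in these 5 genes. The call of Gm20559 ended without pre-CD4 array 1 or 2 (limma adjusted p up to 0.0571), that of Chil5 without pre-CD4 array 1 or 2 or CDP array 3 (up to 0.13) and that of Cysltr1 without pre-CD4 array 2 or any CDP array (up to 0.371). With the array number as a replicate block, the call of Cysltr1 also ended (limma adjusted p = 0.0555) and 4 genes were called. Leaving out pre-CD4 array 2 left 2 called genes, and leaving out pre-CD4 array 1 or CDP array 3 left 3.

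In CD24 DC against CDP, 4 of the 17 genes rose and 0 fell, a share near the background, since 21.2% of all genes passed the threshold, 8.32% higher and 12.9% lower. The median difference was 0.33 over the 17 and 0.12 over all genes. Cd226 was 1.10 ± 0.25 higher (limma adjusted p = 0.00565; 0.000159 to 0.0407 over all alternatives), so its level in CD24 DC was above that of CDP though well below that of pre-CD8. Chil5 was 1.20 ± 0.32 higher (limma adjusted p = 0.0151), Igh-VS107 1.18 ± 0.37 higher (limma adjusted p = 0.0391) and Nccrp1 1.01 ± 0.26 higher (limma adjusted p = 0.0127). Without CD24 DC array 2 the calls of Chil5 (limma adjusted p = 0.0657), Igh-VS107 (0.108) and Nccrp1 (0.0544) ended and 1 gene was called. Without CDP array 3 those of Chil5 (limma adjusted p = 0.0624) and Igh-VS107 (0.102) ended and 2 were called. Igh-VS107 also lost its call without CDP array 1 or 2 or either pre-CD4 array, and when only the arrays compared were fitted (limma adjusted p = 0.0703). Spleen was digested with enzymes and marrow was crushed, and of 20 genes of tissue-dissociation stress 18 rose and 0 fell in this comparison, with a mean log2 value of 9.37 to 10.21 in CD24 DC and 6.77 to 7.20 in CDP and a summed linear level of 21545.7 to 34431.8 in CD24 DC and 3450.1 to 5440.9 in CDP. Organ, cell release and population cannot be told apart here. With the array number as a replicate block, 6 genes were called, adding Gm20559 at 1.88 (limma adjusted p = 0.000762, against 0.0618 without the block) and Cysltr1 at 1.17 (limma adjusted p = 0.0469, against 0.0507).

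In CD172a DC against pre-CD4, 4 of the 17 genes fell and 0 rose, where 12.7% of all genes passed the threshold, 4.7% higher and 8.02% lower. The median difference was -0.43 over the 17 and 0.09 over all genes. Anxa1 averaged 6.65 ± 0.57 in CD172a DC and 8.73 ± 0.25 in pre-CD4 (SD, n = 2 each), a difference of -2.09 ± 0.34 (SE; limma adjusted p = 0.00126). Cd226 differed by -2.01 ± 0.30 (limma adjusted p = 0.000616). Cysltr1 differed by -2.10 ± 0.49 (limma adjusted p = 0.0115) and Nccrp1 by -1.26 ± 0.32 (limma adjusted p = 0.0186). The calls of Anxa1 and Cd226 held with each array left out in turn. That of Cysltr1 ended without CD172a DC array 2 (limma adjusted p = 0.118) or pre-CD4 array 2 (0.111), and that of Nccrp1 without CD172a DC array 1 (0.211) or pre-CD4 array 2 (0.131). Without pre-CD4 array 2, 2 genes were called. This comparison also sets spleen against marrow: of the 20 stress genes 16 rose and 0 fell, with a mean log2 value of 9.92 to 10.28 in CD172a DC and 7.38 to 7.75 in pre-CD4 and a summed linear level of 30186.4 to 37410.6 in CD172a DC and 6953.5 to 9846.7 in pre-CD4. Their part in the 4 genes was not tested. With the array number as a replicate block, 6 genes were called in this comparison. That block took in CD172a DC, whose deviations did not follow those of same-number arrays. The block added Gm20559 at -1.68 (limma adjusted p = 0.0101, against 0.211 without the block). It also added Chil5 at -0.99 (limma adjusted p = 0.0374, against 0.12).

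In CD24 DC against CD172a DC, 1 of the 17 genes passed, near the background of 5.59% of all genes, 3.21% higher and 2.37% lower. That gene was Anxa1, at 8.58 ± 0.59 in CD24 DC (SD, n = 3) and 6.65 ± 0.57 in CD172a DC (SD, n = 2), a difference of 1.93 ± 0.31 (SE; limma adjusted p = 0.00214). Without CD172a DC array 1 its adjusted p was 0.0549 (limma) and 0 genes were called, and without CD24 DC array 3 there were 4. The median difference was -0.04 over the 17 and -0.01 over all genes. These 4 comparisons share arrays of CDP, CD24 DC, CD172a DC and pre-CD4, so their results are not separate observations. None of the 8 genes that rested on pre-CD8 array 2 passed in any of the 4, nor did Prg2 or AF067061. The standard errors pool the spread of all populations, and the SD between the pre-CD8 arrays was 1.69 to 3.41 for the 8 genes. It was 1.81 for Prg2. Ltf had an SE of 0.85 in CD172a DC against pre-CD4, where the SDs of these populations were 0.27 and 0.34. That these genes did not pass is therefore no sign of equal levels.

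**Figure D4:**
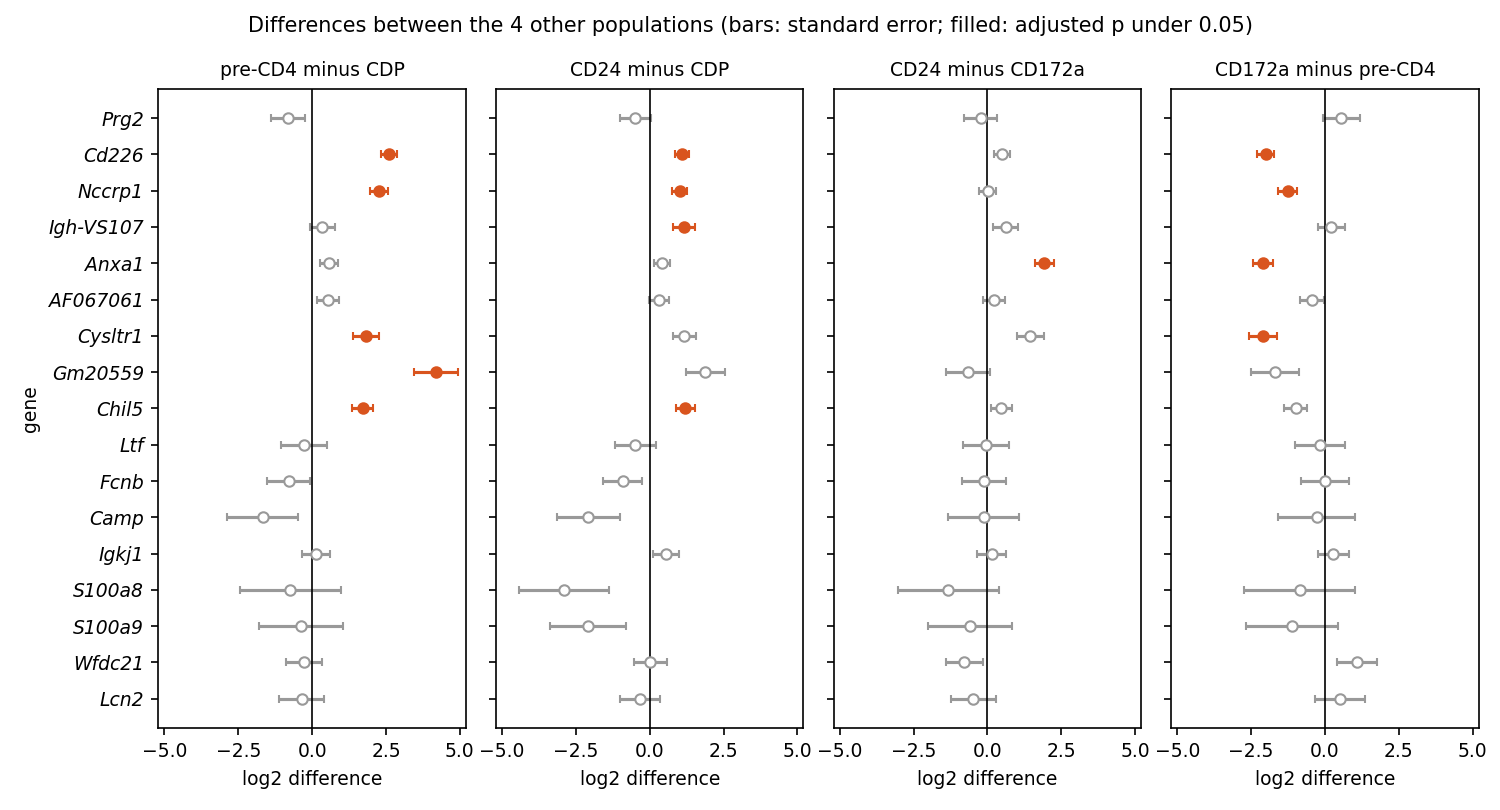
Log2 difference of each of the 17 genes in the 4 comparisons among the other populations, in the direction written above each panel, with bars of 1 standard error; filled orange points have a limma adjusted p under 0.05 and open grey points do not. Filled points stand in the upper rows alone, from Cd226 to Chil5. The standard errors, which include the spread of the pre-CD8 arrays, are widest for S100a8, S100a9 and Camp.

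The order of levels differed between the genes that moved. For Cd226 and Nccrp1 pre-CD8 was highest, pre-CD4 next and CDP lowest, and CD24 DC and CD172a DC lay between, with a difference from each other that did not pass the threshold. For Anxa1 neither pre-CD4 nor CD24 DC passed against CDP, and CD172a DC was lowest. The population with the next highest mean was pre-CD4 for 7 of the 17 genes, CDP for 6, CD24 DC for 2 and CD172a DC for 2.

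Within populations, 12 of the genes were described in 2 sets, chosen after their values were seen. Deviations from the population mean were taken over the 10 arrays outside pre-CD8. Among Ltf, Camp, Fcnb, Lcn2, S100a8, S100a9 and Wfdc21 the 21 pairs had r of 0.50 to 0.98, with a median of 0.82. Among Cd226, Nccrp1, Anxa1, Gm20559 and Chil5 the 10 pairs had r of 0.36 to 0.98, with a median of 0.69. Between the sets the 35 pairs had r of -0.67 to 0.43, with a median of -0.11. Genes on an array share its RNA and its spread of values, and CD24 DC array 3 had the narrowest interquartile range, 2.10, so these correlations are a description without a test. The sets leave out 5 of the 17 genes, and some of those varied with the first set: Igh-VS107 had r of 0.85 with S100a8 and 0.80 with S100a9, Cysltr1 had 0.73 and 0.81, and Prg2 had 0.83 with Ltf.

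The margin cut through a continuous range. Just inside it lay Lcn2 at 0.81, Wfdc21 at 0.82 and Chil5 at 0.86. Just outside lay Lpcat4, an enzyme of phospholipid remodelling, at 0.77, the basophil protease Prss34 at 0.75 and the G protein regulator Rgs14 at 0.74. In all, 27 genes met the margin, and 10 of them had a pre-CD8 mean under the floor of 6.0. They were Cpa3, Fcer1a, Car1, Ppp1r36, Pf4, Mir3098, H2bc1 and the immunoglobulin kappa segments Igkv9-120, Igkv4-70 and Igkv4-59. Igkv9-120 measured 8.83 on pre-CD8 array 1 and 2.15 on array 2, while Igkv4-70 and Igkv4-59 read higher on array 2. When the lowest pre-CD8 array had to lie 0.8 above the highest other array, 3 of the 17 were left, Cd226, Nccrp1 and Anxa1.

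Over all genes, array means were 5.28 to 5.34 and medians 4.89 to 5.24. The pre-CD8 arrays correlated at r = 0.963 across genes, within the 0.925 to 0.987 of the 9 pairs of one population, while array 2 of pre-CD8 and array 2 of pre-CD4 correlated at 0.976. Genes are not independent replicates, and these values describe the arrays.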

How the data were processed

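The authors deposited log2 expression values, 1 for each probe set on each array; background correction, summarization, normalization and software are not given in the sources used. Per the labels' protocols, NuGEN Ovation Pico WTA amplification preceded biotin labelling. Of 35145 probe sets, 23521 listed 1 gene symbol, 1814 several and 9810 none; the brightest probe set per gene was kept, giving 22180 genes. Groups came from sample titles. limma 3.58.1 (R 4.3.3) fitted 5 group means over 12 arrays (7 residual and 6.19 prior degrees of freedom), with two-sided p-values Benjamini-Hochberg adjusted over all genes and a threshold of 0.05. The script was tested on simulated data. The number of arrays limits the precision. Members and lists were chosen with earlier results of these data known. Genes were named by gap, list membership, calls in the 4 comparisons and closeness to the margin. Deviations of same-number arrays correlated at 0.10 to 0.42 in all 13 pairs outside CD172a DC, above 0.1 in each, and at -0.16 to 0.02 in the 8 pairs with it, so the number was read as pairing the other 4 populations and block values stand where they change a call; the labels do not say what a number marks.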

Additional observations from a re-analysis of the deposited data

How the results depend on the processing

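The number of genes meeting the rule was 29 at a margin of 0.6, 10 at a margin of 1, 10 at a floor of 7 and 3 when single arrays had to be apart; with each array left out in turn it ran from 12 to 41. Gaps fell below 0 without pre-CD8 array 2 in Ltf (-0.64), Fcnb (-0.41), Camp (-1.29), Igkj1 (-0.20), S100a8 (-0.85), S100a9 (-0.61), Wfdc21 (-0.61) and Lcn2 (-0.85), without CDP array 1 in S100a8 (-0.14) and S100a9 (-0.15), and without CD172a DC array 2 in S100a8 (-0.13) and Lcn2 (-0.02). Over all arrays left out, the gap ran from -1.29 to 3.53 in Camp, -0.85 to 2.83 in S100a8, -0.61 to 2.44 in S100a9, -0.64 to 3.22 in Ltf, -0.41 to 2.77 in Fcnb, -0.20 to 2.19 in Igkj1, -0.61 to 2.25 in Wfdc21 and -0.85 to 2.47 in Lcn2. Members called with arrays left out numbered 1 to 6 in CD24 DC against CDP, 2 to 5 in pre-CD4 against CDP, 0 to 4 in CD24 DC against CD172a DC and 2 to 5 in CD172a DC against pre-CD4. Quantile normalization left 2 called in CD24 DC against CDP, without Igh-VS107 (limma adjusted p = 0.0845) and Chil5 (0.0662), and ended the call of Cysltr1 in pre-CD4 against CDP (0.0603), and 7 were called in CD172a DC against pre-CD4 when only those arrays were fitted. List genes called ran from 99 (without pre-CD8 array 2) to 169 in pre-CD8 against CDP and from 78 (without pre-CD8 array 1) to 150 in CD24 DC against pre-CD8, where all arrays gave 130. With the replicate block the counts were 6, 4, 1 and 6 for the 4 comparisons in the order above, and 154 and 128 for the list genes; the block ended the call of Cysltr1 in pre-CD4 against CDP (limma adjusted p = 0.0555). The cause of these shifts was not tested. With 2 or 3 arrays a population, a difference of pre-CD8 array 2 from array 1 could not be set against further arrays, and no detection calls were used, so low values may be background.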
